A study of Mus musculus with 2 samples.

Results

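Described here are 10 mouse genes for the sensing of double-stranded RNA and for its chemical editing, read from RNA sequencing of CT26 cells. The genes were chosen by symbol: the sensors Ddx58, Ifih1, Dhx58 and Tlr3, the adaptors Mavs and Ticam1, the signal proteins Traf3 and Ikbke, and the editing enzymes Adar and Adarb1. All 10 symbols were found, each on 1 locus, among the 54680 loci of the deposited table. CT26 is a mouse colon cancer line. The group CT26shSetdb1 received a lentivirus with a short hairpin RNA against Setdb1, the gene of a histone H3 lysine methyltransferase. The group CT26shCtrl, listed as wild type in genotype, received the empty knockdown vector by lentivirus, and the labels do not say whether that vector made any hairpin. Both cultures were grown in RPMI medium with serum for 6 days before total RNA was taken, and the labels call the knockdown cells differentiated. Each group had 1 library, so no difference below has a replicate check, no test between conditions was possible, and the values describe these 2 libraries.

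Cells recognise double-stranded RNA as a sign of virus infection, and also meet it in transcripts of their own repeats and endogenous retroviruses. In the cytosol the helicases RIG-I (Ddx58) and MDA5 (Ifih1) bind it and signal through MAVS on mitochondria, while LGP2 (Dhx58), which lacks the signalling domain, modulates both. In endosomes TLR3 signals through TRIF (Ticam1). Both routes use TRAF3 and the kinases TBK1 and IKK-epsilon (Ikbke) to activate IRF3 and interferon genes. ADAR enzymes convert adenosine to inosine in double-stranded RNA, which loosens its pairing and limits its detection.

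The promoters of the helicase genes and of Adar are shown because several of these genes were higher together in CT26shSetdb1. RefSeq promoters (GRCm38.p6, 250 bases before to 50 after each annotated start) were found for 9 of the 10 genes, 11 promoters in all, and not for Dhx58. They were searched on both strands for the interferon-stimulated response element (ISRE), which is bound by interferon regulatory factors, written as GAAANNGAAA, and for a form with a shorter spacer, GAAANGAAA, which was added after the sequences had been read. Capitals mark the match in each line.
Ddx58, chr4:40239829-40239928, minus strand, just upstream of the annotated gene: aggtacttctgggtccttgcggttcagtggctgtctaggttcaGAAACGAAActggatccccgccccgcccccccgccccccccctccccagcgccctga
Ddx58, chr4:40239804-40239833, minus strand, around the start: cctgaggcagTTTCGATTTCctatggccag
Ifih1, chr2:62646206-62646233, minus strand, just after the start: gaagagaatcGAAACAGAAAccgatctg
Adar, chr3:89730736-89730764, plus strand, at the third RefSeq start: ccttttcaagGAAACGAAAgtgaactctg
Ticam1, chr17:56276787-56276886, minus strand, just upstream of the annotated gene, with no match: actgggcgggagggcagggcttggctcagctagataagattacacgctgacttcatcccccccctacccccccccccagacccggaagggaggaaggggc
Mavs, chr2:131233963-131234062, plus strand, just upstream of the annotated gene, with no match: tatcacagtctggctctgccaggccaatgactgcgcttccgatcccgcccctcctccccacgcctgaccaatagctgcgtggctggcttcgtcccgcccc

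Ddx58 held both forms, the shorter from position -60 to -52 and the longer, on the opposite strand, from 3 to 12, counted from 1 at the RefSeq start. In Ifih1 the longer form lay from 33 to 42. The Adar match, from 29 to 37 of the third start, ended at 89730754 and covered position 89730748, where 4 of the 5 coding Adar transcripts of GENCODE M21 begin. Of the 32851 promoters in the RefSeq table, 3.44% held the longer form, 3.17% the shorter and 6.27% either. Here 3 of the 11 promoters held either form. Those of Ikbke, Adarb1, Tlr3, Traf3, Ticam1, Mavs and the other Adar starts held neither. Matches to the STAT site known as GAS, TTCNNNGAA, stood in 8.3% of promoters and in 1 of the 11 here, that of the third Adar start, where it overlapped the ISRE match. The NF-kappaB consensus matched in 4.51% of promoters and here in those of Tlr3 (positions -211 to -202) and Traf3 (-10 to -1). These matches describe letters in a window and do not show that a factor bound there.

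Depth was similar in both libraries, 18421604 reads in CT26shCtrl and 19045830 in CT26shSetdb1. Setdb1 itself was at 10.4 FPKM (1340 reads) in CT26shCtrl and 2.47 FPKM (317 reads) in CT26shSetdb1, or 23.7% of the control level. Its gene overlaps Cers2, and strand use in counting is not given in the sources used here. FPKM counts fragments relative to the length of the gene model and to a sequencing depth, here a single depth for both libraries. Ratios of FPKM therefore carry the 1.03 ratio of the read totals, knockdown over control. Ratios below are knockdown over control, either as the log2 ratio of (FPKM + 1), on which low genes differ less than they do on a plain ratio, or as the ratio of reads relative to library totals. Read ratios carry a 95% exact binomial (Clopper-Pearson) interval, which covers counting error alone and treats PCR copies of a molecule as separate reads. White blood cells are rich in several of these sensors, so their markers were summed. The 8 markers of white blood cells had 25 reads in all in CT26shCtrl and 27 in CT26shSetdb1, with a summed level of 0.955 and 0.886 FPKM. Of these 8, 4 had no reads in either library, among them Cd3e and Adgre1. The 4 endothelial markers had 1 read in CT26shCtrl and 0 in CT26shSetdb1, and the 4 fibroblast markers summed to 32.9 and 26.1 FPKM, mostly Col1a1. Of the other fibroblast markers, Pdgfra (94 and 333 reads) was higher in CT26shSetdb1. Dcn (23 and 33 reads) had a read ratio of 1.39 with an interval of 0.791 to 2.48, which spans 1. Lum had 0 reads. The epithelial markers Epcam and Cdh1 also had 0 reads in both libraries, although the labels name a colon cancer line, while 3 of the 10 epithelial markers reached 1 FPKM, among them Krt18 and Krt20. Over all 10 epithelial markers the summed level was 43.8 FPKM in CT26shCtrl and 128 FPKM in CT26shSetdb1, and its part in the results below was not tested. In bulk RNA, a change in the number of cells that use a gene and in the RNA per cell cannot be told apart. Of the 10 genes, 3 overlap another gene with reads: Dhx58, Ikbke (Gm28913, 3 and 1 reads in CT26shCtrl and CT26shSetdb1) and Adar (Chrnb2, 39 and 19 reads).

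The cytosolic sensors, the adaptor of TLR3, the kinase Ikbke and the editing enzyme Adar were all higher in CT26shSetdb1, while Mavs, Traf3, Tlr3 and Adarb1 stayed near or below their control level. A gene was called at a 2-fold difference in (FPKM + 1). By that rule 4 of the 10 genes were higher, Dhx58, Ddx58, Adar and Ticam1, and 0 were lower. Among the 10671 genes that reached 1 FPKM in either library, 6.81% were higher and 4.85% lower by this rule. At 1.5-fold, 6 of the 10 were higher (16.9% of all genes) and 0 lower (14.3%), and at 4-fold only Dhx58 was higher (1.09%) and 0 lower (0.525%). The median log2 ratio of the 10 genes was 0.76, against -0.00039 over the 10671 genes. Tlr3 and Adarb1 were under 1 FPKM in both libraries and the other 8 reached it, Ifih1 only in CT26shSetdb1. On read ratios, which have no pseudocount, Ifih1 and Ikbke also passed 2-fold, making 6 of 10 higher against 10.3% of all genes and 0 lower against 9.6%. With a pseudocount of 0.1 the same counts of 6 and 0 stood against 10.6% and 8.15%. The log2 ratio was above 0 for 7 of the 10 and for 49.6% of all genes. The counting interval lay above 1 for 6 genes and below 1 for 2, where 35.2% and 40.6% of all genes did so, so an interval clear of 1 was common at this depth.

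**Figure D1:**
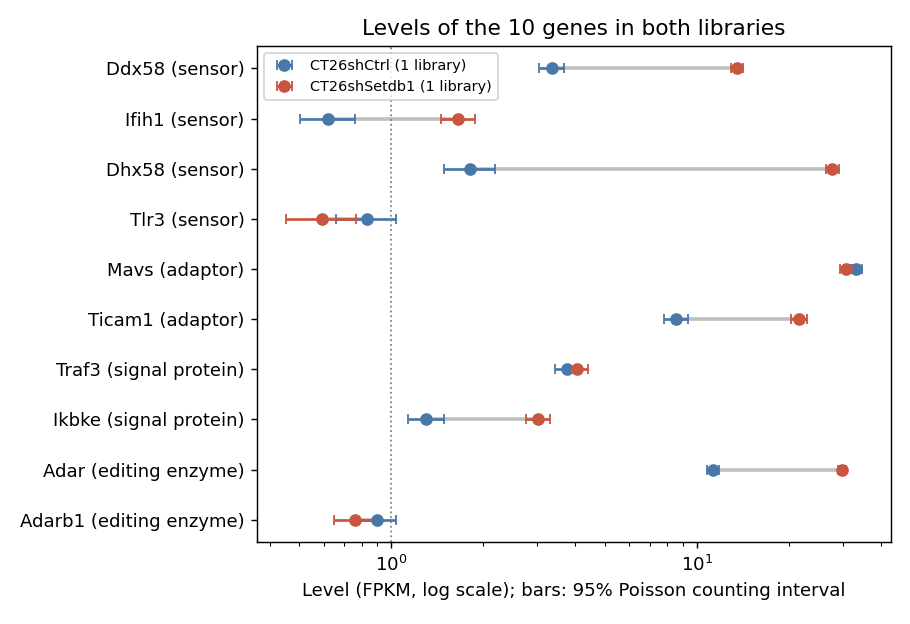
Level of each of the 10 genes in FPKM on a log axis, with 1 point per library and bars for the 95% Poisson counting interval. Dhx58 has the widest gap, from 1.81 to 27.7 FPKM, and Mavs is at 33.1 and 30.7 FPKM.

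Ddx58 (ENSMUSG00000040296, chromosome 4, 40203773 to 40239828 in GRCm38, minus strand) encodes RIG-I, a helicase that recognises RNA ends carrying a triphosphate. Its level was 3.35 FPKM (443 reads) in CT26shCtrl and 13.5 FPKM (1783 reads) in CT26shSetdb1. CT26shSetdb1 was thus higher by 1.74 on the log2 scale, and the reads differed 3.89-fold (3.51 to 4.33). A ratio as high or higher was seen in 1.66% of the 10671 genes. This is the gene whose start region carried both ISRE forms shown above.

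Ifih1 (ENSMUSG00000026896, chromosome 2, 62595798 to 62646255, minus strand) encodes MDA5, which binds long double-stranded RNA. It was the lowest of the 10 genes in CT26shCtrl, at 0.621 FPKM (95 reads), and stood at 1.65 FPKM (253 reads) in CT26shSetdb1. The read ratio was 2.58 (2.03 to 3.30), while the log2 ratio of (FPKM + 1) was 0.71 and under the 2-fold rule. A ratio as high on that scale was seen in 13.0% of genes.

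Dhx58 (ENSMUSG00000017830, chromosome 11, 100694884 to 100704271, minus strand), the gene of LGP2, differed most of the 10. It had 111 reads (1.81 FPKM) in CT26shCtrl and 1697 reads (27.7 FPKM) in CT26shSetdb1, a log2 ratio of 3.35. The read ratio was 14.8 (12.2 to 18.1), and its interval lay above those of all 9 other genes. Only 17 of the 10671 genes, or 0.159%, had a ratio as high or higher, Dhx58 included. An antisense locus, Dhx58os, overlaps the gene and went with it, at 12 reads in CT26shCtrl and 70 in CT26shSetdb1. The share of its reads that belongs to Dhx58 was not tested.

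The balance among the RIG-I-like helicases therefore differed between the libraries. Summed over Ddx58, Ifih1 and Dhx58, the level was 5.79 FPKM in CT26shCtrl and 42.8 FPKM in CT26shSetdb1. Per length, Dhx58 was at 0.540 times the level of Ddx58 in CT26shCtrl and at 2.05 times in CT26shSetdb1. Ifih1 was at 0.185 times the level of Ddx58 in CT26shCtrl and at 0.123 times in CT26shSetdb1. Dhx58, whose product modulates the other helicases, was thus the highest of the 3 in CT26shSetdb1, whereas Ddx58 was so in CT26shCtrl.

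Tlr3 (ENSMUSG00000031639, chromosome 8, 45395665 to 45411080, minus strand) encodes the endosomal receptor for double-stranded RNA. It was at 0.830 FPKM (81 reads) in CT26shCtrl and 0.595 FPKM (58 reads) in CT26shSetdb1. On the log2 scale the ratio was -0.20, and that of the reads was 0.693 with an interval of 0.486 to 0.982. This sensor did not share the difference seen in the cytosolic sensors: its interval lay wholly below those of Ddx58, Ifih1 and Dhx58.

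**Figure D2:**
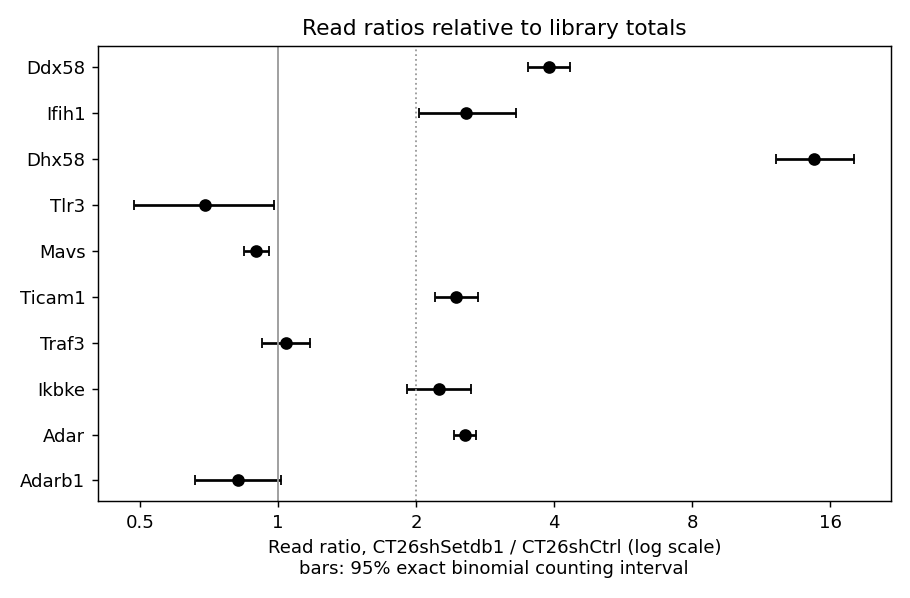
Ratio of reads relative to library totals, knockdown over control, on a log axis, with bars for the 95% exact binomial counting interval, a solid line at 1 and a dotted line at 2. Dhx58 is at 14.8, and Traf3 and Adarb1 have intervals that span 1.

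The adaptors differed from each other. Mavs (ENSMUSG00000037523, chromosome 2, 131234063 to 131248025, plus strand), the mitochondrial adaptor of RIG-I and MDA5, was at 33.1 FPKM (2073 reads) in CT26shCtrl and 30.7 FPKM (1922 reads) in CT26shSetdb1. Its read ratio was 0.897 (0.842 to 0.955) and its log2 ratio -0.11, which 57.8% of genes reached or exceeded. Ticam1 (ENSMUSG00000047123, chromosome 17, 56269319 to 56276786, minus strand) encodes TRIF, the adaptor of TLR3. It was at 8.51 FPKM (477 reads) in CT26shCtrl and 21.6 FPKM (1208 reads) in CT26shSetdb1. CT26shSetdb1 was higher by 1.25 on the log2 scale, which 4.18% of genes reached, and its reads were 2.45-fold those of CT26shCtrl (2.20 to 2.73). Ticam1 was higher while its receptor Tlr3 was not: Tlr3 stood at 0.0976 times the level of Ticam1 in CT26shCtrl and at 0.0276 times in CT26shSetdb1.

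Among the signal proteins, Traf3 (ENSMUSG00000021277, chromosome 12, 111166370 to 111267153, plus strand), the ubiquitin ligase that joins both adaptors to the kinases, hardly differed. Its level was 3.75 FPKM (516 reads) in CT26shCtrl and 4.04 FPKM (556 reads) in CT26shSetdb1, with a read ratio of 1.04 and an interval of 0.923 to 1.18. Ikbke (ENSMUSG00000042349, chromosome 1, 131254343 to 131279606, minus strand), the inducible kinase that acts beside TBK1, was at 1.30 FPKM (220 reads) in CT26shCtrl and 3.02 FPKM (510 reads) in CT26shSetdb1. Its read ratio was 2.24 (1.91 to 2.64) and its log2 ratio 0.80, under the 2-fold rule on the (FPKM + 1) scale. Tbk1 had 352 reads in each library (4.81 FPKM), so of this kinase pair Ikbke alone was higher.

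The editing enzymes went apart as well. Adar (ENSMUSG00000027951, chromosome 3, 89715022 to 89753446, plus strand), whose products include a long form induced by interferon, was at 11.3 FPKM (1715 reads) in CT26shCtrl and 29.8 FPKM (4538 reads) in CT26shSetdb1. Reads were 2.56-fold higher (2.42 to 2.71) in CT26shSetdb1, a log2 ratio of 1.33 that 3.48% of genes reached. The table gives 1 value per gene, so the transcripts from the different Adar starts cannot be told apart, and editing of RNA was not measured. Adarb1 (ENSMUSG00000020262, chromosome 10, 77290726 to 77418270, minus strand), the gene of ADAR2, which edits neuronal receptor transcripts, was at 0.900 FPKM (190 reads) in CT26shCtrl and 0.763 FPKM (161 reads) in CT26shSetdb1. Its read ratio was 0.820 with an interval of 0.660 to 1.02. Adar was thus 12.5 times the level of Adarb1 per length in CT26shCtrl and 39.1 times in CT26shSetdb1.

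**Figure D3:**
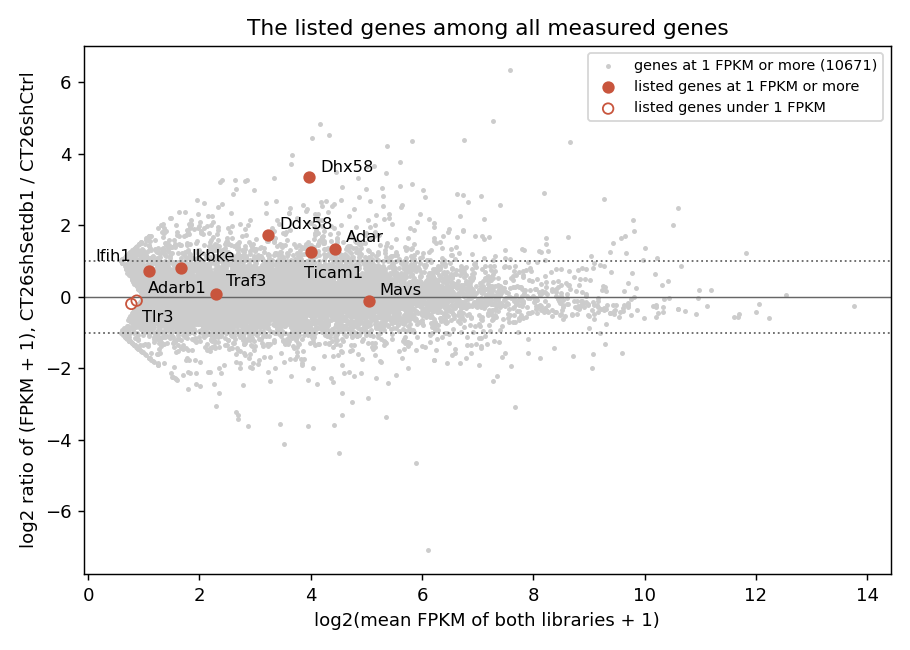
Log2 ratio of (FPKM + 1), knockdown over control, against the log2 of the mean level plus 1, for the 10671 genes at 1 FPKM or more (grey) and the 10 genes described (red, open where under 1 FPKM in both libraries), with dotted lines at a 2-fold difference. Dhx58, Ddx58, Adar and Ticam1 lie above the upper line and none of the 10 below the lower one.

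The order of the levels, compared per length, also differed. In CT26shCtrl Mavs was highest, followed by Adar, Ticam1, Traf3, Ddx58, Dhx58, Ikbke, Adarb1, Tlr3 and Ifih1. The counting intervals of neighbours in that order overlapped for Traf3 and Ddx58, for Adarb1 and Tlr3, and for Tlr3 and Ifih1. In CT26shSetdb1 the order was Mavs, Adar, Dhx58, Ticam1, Ddx58, Traf3, Ikbke, Ifih1, Adarb1 and Tlr3. There Mavs at 30.7 FPKM, with an interval of 29.3 to 32.1, did not stand apart from Adar at 29.8 FPKM (29.0 to 30.7), nor Adar from Dhx58 (26.4 to 29.0). Adar was at 0.341 times the level of Mavs in CT26shCtrl and at 0.973 times in CT26shSetdb1. Summed over the 10 genes, the level was 65.4 FPKM in CT26shCtrl and 133 FPKM in CT26shSetdb1. The gene models are unions of exons, 7050 bases for Ddx58 where its longest coding transcript has 3874, but 2992 bases for both in Ticam1, which lowers FPKM unequally between genes.

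The 108 other genes of the pathway were placed in 7 lists, of which 86 reached 1 FPKM, 17 (19.8%) were higher by 2-fold or more and 2 (2.33%) lower, beside 6.81% and 4.85% of all genes. Most of the 17 came from the lists of IRF3 and NF-kappaB outputs and of other double-stranded RNA binders, with 7 genes in each. Whether this pathway raised them here was not tested. The other 3 were Trim25, Tradd and Irf7. None came from the lists of inhibitors, of the endosomal route or of other editing genes. Of the 17, Ccl5, Cxcl10, Ifit1, Ifit3, Rsad2 and Zbp1 reached 1 FPKM only in CT26shSetdb1. They entered the count through the library in which they were high.

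RIG-I needs partner proteins to signal. Of 12 cofactors and activating ligases, 8 reached 1 FPKM, of which 1 (12.5%, beside 6.81% of all genes) was at least 2-fold higher and 0 lower, with a median log2 ratio of 0.31. Trim25, a ubiquitin ligase for RIG-I, was at 15.4 FPKM (1660 reads) in CT26shCtrl and 45.2 FPKM (4874 reads) in CT26shSetdb1, a log2 ratio of 1.49. Rnf135 (Riplet), the other main ligase of RIG-I, was at 5.86 and 9.03 FPKM, a log2 ratio of 0.55. The lowest ratio of this list, -0.25, was that of the ligase gene Mex3c. Among 16 inhibitors of the pathway, 15 reached 1 FPKM, with a median of -0.12. None of these inhibitors was 2-fold different either way, beside 11.7% of all genes. Their ratios ran from -0.85 for Itch, a ligase that degrades MAVS, to 0.69 for Smurf1. Itch passed 2-fold on the read ratio, 0.373 (0.313 to 0.443), and with a pseudocount of 0.1, where 1 inhibitor was called lower.

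Below the adaptors, all 18 genes reached 1 FPKM, 2 (11.1%) were at least 2-fold higher and 1 (5.56%) lower, near the 6.81% and 4.85% of all genes, and the median was 0.04, which fell below 0 under 3 of the 4 other scalings. Irf7, the interferon regulatory factor that amplifies interferon production, was at 9.02 FPKM (638 reads) in CT26shCtrl and 300.1 FPKM (21227 reads) in CT26shSetdb1. Irf3, the factor that acts first, was at 16.9 FPKM in CT26shCtrl and 19.6 FPKM in CT26shSetdb1, a log2 ratio of 0.20. Tab2, a partner of the kinase TAK1, was lowest, with 1316 reads in CT26shCtrl and 552 in CT26shSetdb1 (log2 ratio -1.10). For the endosomal route, 7 of 15 genes reached 1 FPKM, with a median of 0.19. None of them differed 2-fold, beside 11.7% of all genes either way. Tlr7, Tlr8, Tlr9, Tlr13 and Unc93b1, the chaperone that carries these receptors and TLR3 to endosomes, were listed at 0 reads in both libraries. Ratios on that route ran from -0.43 for Sidt2 to 0.82 for Slc15a4.

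Another 23 genes for proteins that bind double-stranded RNA all reached 1 FPKM in at least 1 library. Zbp1 did so only in CT26shSetdb1 (0.832 FPKM in CT26shCtrl), and Dicer1 and Stau2 only in CT26shCtrl. Of the 23, 7 (30.4%) were at least 2-fold higher and 1 (4.35%) lower, beside 6.81% and 4.85% of all genes. Their median was -0.26 and 13 were below 0. The 7 were Eif2ak2, Zbp1 and the oligoadenylate synthetase family genes Oas1a, Oas2, Oas3, Oasl1 and Oasl2. Eif2ak2 (PKR), the kinase that stops translation on binding double-stranded RNA, was at 1.46 FPKM (140 reads) in CT26shCtrl and 4.35 FPKM (417 reads) in CT26shSetdb1, a log2 ratio of 1.12. Zbp1, a sensor of left-handed double-stranded RNA, went from 55 reads in CT26shCtrl to 1148 in CT26shSetdb1, a read ratio of 20.2 (15.4 to 27.0). On the scale of (FPKM + 1), Oasl2 had the highest ratio, 3.67 in log2, at 4.10 FPKM in CT26shCtrl and 64.0 FPKM in CT26shSetdb1, while its read ratio of 15.1 was below that of Zbp1. The lowest was Ddx21, a nucleolar helicase, at 28.2 and 11.3 FPKM (log2 ratio -1.24).

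Of 11 other editing genes, 7 reached 1 FPKM and none differed 2-fold, beside 11.7% of all genes either way. Their ratios ran from -0.74 for Snd1, a nuclease family gene that binds inosine-containing RNA, to 0.42 for Wwp2, a ubiquitin ligase. Among 13 listed outputs of IRF3 and NF-kappaB, 7 were at least 2-fold higher. They were 87.5% of the 8 that reached 1 FPKM, beside 6.81% of all genes. The median of those 8 was 2.44. Ccl5, Cxcl10, Ifit1, Ifit3 and Rsad2 reached 1 FPKM only in CT26shSetdb1, so the filter favoured genes that were higher there. Without the filter the median over the 13 was 1.79. The chemokine gene Ccl5 had 14 reads in CT26shCtrl and 402 in CT26shSetdb1, a read ratio of 27.8 (16.4 to 51.3). Cxcl10 had 15 and 493 reads, a read ratio of 31.8 (19.1 to 57.2). Ifit2 was lowest, at 95 and 100 reads, a log2 ratio of 0.04. The interferon genes of this list were at or close to the limit of detection. Ifnb1 had 1 read in CT26shCtrl and 5 in CT26shSetdb1, a ratio of 4.84 with an interval of 0.541 to 229. Ifna4, Ifnl2 and Ifnl3 had 0 reads in both, and other interferon genes were not examined here.

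**Figure D4:**
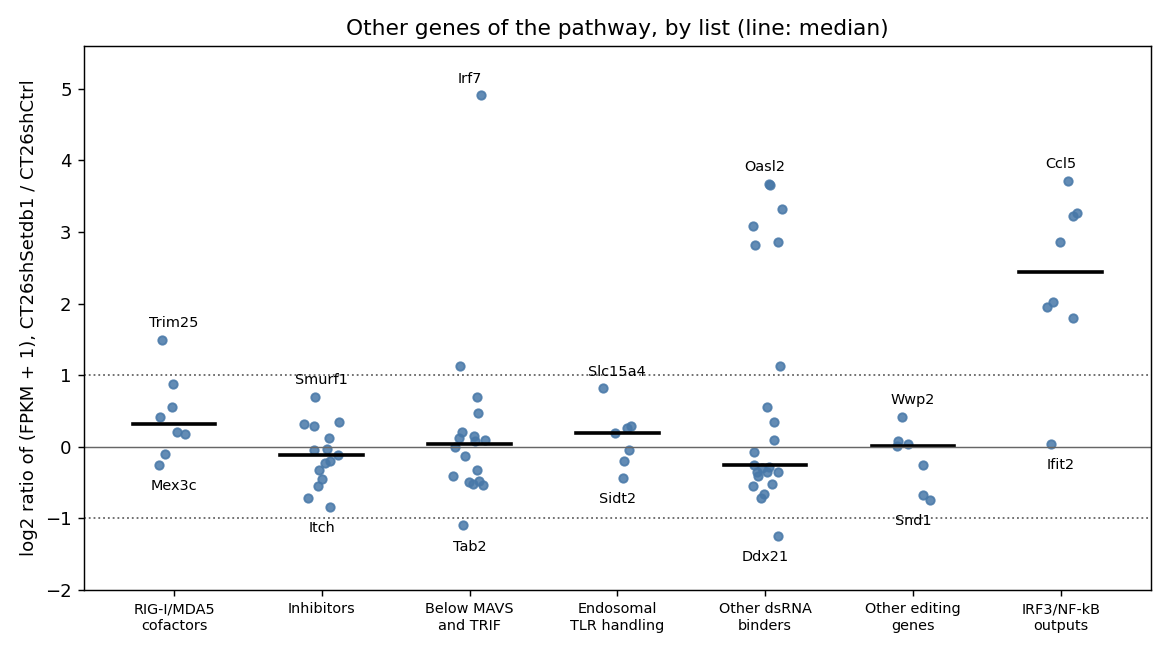
Log2 ratio of (FPKM + 1), knockdown over control, for the genes of each of the 7 lists at 1 FPKM or more, with 1 point per gene, a black line at the list's median and the highest and lowest gene named. The outputs of IRF3 and NF-kappaB have a median of 2.44, and Irf7 has the highest ratio at 4.91.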

How the data were processed

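RNA of CT26 cells was sequenced in 2 libraries, 1 per group, made with a NEBNext Ultra RNA kit per the labels' protocols. The submitters' processing notes name CASAVA, HISAT2, featureCounts 1.5.0-p3 and the GRCm38 build, with no order. The authors deposited FPKM values with the length of each gene model, per the file headers. Of 54409 loci found in GENCODE M21, 98.3% had the same chromosome, start and end. FPKM times length came out as whole reads for 100% of values above 0 (tolerance 1e-06), and the step of 1 read showed a single depth used for both columns, so log2 ratios of (FPKM + 1) carry the 1.03 ratio of the totals.

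A pseudocount of 1 was used, with a filter of 1 FPKM in at least 1 library for counts over all genes and lists. The genes described and the lists were chosen with earlier results of these data known. Genes named from lists were the highest and lowest of each list plus 11 fixed symbols. Others, such as Tradd, the Oas genes, the Tlr genes besides Tlr3 and the interferon genes besides Ifnb1, were named after their values were seen. Calculations were tested on simulated data. Tables were computed in Python 3.11.15 with pandas 2.3.3 and numpy 2.4.6, intervals with scipy 1.17.1, and figures with matplotlib 3.10.9. Alternatives were a pseudocount of 0.1, other filters, 4 scalings, thresholds of 1.5-fold and 4-fold, and protein-coding genes only. The read ratio without a pseudocount and the addition of Dhx58os reads were chosen after seeing the data.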

Additional observations from a re-analysis of the deposited data

How the results depend on the processing

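Of 61 alternative values of the 10 gene ratios, 53 stayed within counting error, 8 moved away from 0 and 0 reversed. The 8 came with a pseudocount of 0.1 and, in the same order, with the read ratio: Ddx58 1.98 and 1.96, Dhx58 3.86 and 3.89, Ifih1 1.28 and 1.37, Ikbke 1.15 and 1.16. A smaller pseudocount does this by construction at low levels. The median of the 10 was 1.22 and 1.23 under these settings, and Setdb1 was at -2.04 with the pseudocount of 0.1. The number of the 10 genes at least 2-fold higher was 6 under both, 6 at 1.5-fold, 1 at 4-fold and 4 under every other scaling. None was 2-fold lower in any setting run. Over all genes, 1134 were higher and 870 lower with the pseudocount of 0.1, against 727 and 518 at first, 1804 and 1523 at 1.5-fold, and 116 and 56 at 4-fold. List genes past the lower threshold numbered 8 at 1.5-fold and 0 at 4-fold. With a filter at 5 FPKM the medians of the inhibitors and of the other binders of double-stranded RNA turned to 0.05 and 0.09, with fewer genes counted. The inhibitors held 1 gene at least 2-fold lower, in place of 0, with the pseudocount of 0.1. The median of the other editing genes, 0.01 at first, fell below 0 under 3 scalings.

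No paired analysis was possible because there was only 1 library per group, which also leaves no library to omit. Few reads widen the intervals of low genes, such as Tlr3 and Ifnb1. Over the genes that each library had at 1 FPKM or above, the median log2 ratio was -0.0023 as deposited. Its lowest value under the other scalings was -0.0540, with upper quartile scaling.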

Other observations

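Ddx60, a helicase described as a cofactor of RIG-I and named after its values were seen, stayed under 1 FPKM but had 11 reads in CT26shCtrl and 72 in CT26shSetdb1, a read ratio of 6.33 (3.34 to 13.2). The ISRE letters of either spacer stood in 10.9% of the 612 RefSeq promoters of genes at least 2-fold higher, and in 5.24% of the 9742 promoters of genes at 1 FPKM or more. The 612 are part of the 9742 and include promoters of Ddx58 and Adar. The longer form stood in 7.68% and 3.11%, and the shorter, added after reading the sequences, in 3.92% and 2.40%. The NF-kappaB consensus stood in 9.15% and 5.29% of the same promoters, and the GAS letters in 7.35% and 6.37%. These shares were not tested.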
